A study of Mus musculus with 6 samples.

Results

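The 10 genes described here encode cathepsins, the proteases of the lysosome. They were taken as every row of the deposited table that carries the Ensembl identifier of Ctsk, Ctsb, Ctsl, Ctss, Ctsf, Ctsc, Ctsh, Ctsz, Ctsd or Ctsa. All 10 were found among the 23504 genes of the table, and all 10 passed the filter on low values. The RNA-seq libraries came from BMMs, macrophages grown from the bone marrow of male C57BL/6 mice 6 to 8 weeks old. In 3 libraries the cells had received DASA-58, a small molecule that activates the glycolytic enzyme PKM2, and in the other 3 an equal volume of its solvent DMSO. RNA was taken after 3 days in both groups. The text of the study describes the cells of both groups as induced with RANKL, the cytokine that drives osteoclast formation, although the wording of its methods does not settle whether the DMSO cells received it, and no dose of DASA-58 is given for this experiment. The compound is written DASA-48 in its methods and DASA-58 elsewhere and in the labels. The cells are a mixed culture rather than purified osteoclasts, and the labels do not say whether replicates came from separate mice or cultures, so p-values measure the spread between these libraries, which may be technical.

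Cathepsins are made as inactive precursors, carried to the lysosome mainly on mannose 6-phosphate receptors, and activated there at acid pH. Most are cysteine proteases of the papain family, whereas cathepsin D is an aspartic protease and cathepsin A a serine carboxypeptidase. Macrophages use them to break down ingested and worn-out proteins and to prepare antigens. Cathepsin K stands apart because osteoclasts secrete it into the resorption pit, where it cuts the triple helix of type I collagen. Its loss causes the dense bones of pycnodysostosis. The comparison below asks whether the cathepsin of the osteoclast and those of the macrophage moved together when PKM2 was activated.

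The genes of cathepsin K and cathepsin S lie next to each other on chromosome 3, in the same orientation, and Ctsd is one of the genes with the largest share of cathepsin message. The first 2 of these 3 genes are neighbours whose values moved in opposite directions, by much less in the second. The third holds CACGTG, which the first 2 lack. The 250 bases before the RefSeq start of each are therefore shown. They were read from RefSeq promoter windows on GRCm38.p6 and are written 5′ to 3′ on the strand of the gene. The first is Ctsk, plus strand, chr3:95498960-95499209. The second is Ctss, plus strand, chr3:95526536-95526785. The third is Ctsd, minus strand, chr7:142387828-142388077. Capitals mark GAGGAA on either strand in Ctsk and Ctss, the core of a PU.1 site, the core of an interferon response element in Ctss (GAAA, any 2 bases, GAAA), and CACGTG in Ctsd, the E-box bound by the MiT/TFE factors of lysosomal genes.
Ctsk: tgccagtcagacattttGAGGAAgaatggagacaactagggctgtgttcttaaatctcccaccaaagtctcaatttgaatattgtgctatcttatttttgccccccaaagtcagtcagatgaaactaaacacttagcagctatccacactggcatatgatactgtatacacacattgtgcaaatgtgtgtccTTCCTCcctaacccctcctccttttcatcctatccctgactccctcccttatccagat
Ctss: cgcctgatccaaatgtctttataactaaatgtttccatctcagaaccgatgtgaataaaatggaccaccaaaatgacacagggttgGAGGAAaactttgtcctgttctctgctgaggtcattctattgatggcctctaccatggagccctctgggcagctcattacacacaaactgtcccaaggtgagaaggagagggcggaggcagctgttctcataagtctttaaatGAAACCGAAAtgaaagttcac
Ctsd: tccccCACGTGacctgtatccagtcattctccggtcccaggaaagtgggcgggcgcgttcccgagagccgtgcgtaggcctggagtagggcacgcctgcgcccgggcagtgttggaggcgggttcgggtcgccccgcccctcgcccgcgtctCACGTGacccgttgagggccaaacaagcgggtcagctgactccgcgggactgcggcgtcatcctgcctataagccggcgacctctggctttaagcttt
Of the 10 cathepsins, 8 had such a window. Ctsb and Ctsh did not. A RefSeq start can lie inside the gene coordinates given below, so a window need not be upstream of the gene. The Ctsl window (chr13:64370521-64370770) lies wholly inside Ctsl (chr13:64359337-64370890). Most of the Ctsd window lies inside Ctsd (chr7:142375911-142388038). That part holds the CACGTG nearer to the RefSeq start, and the other CACGTG lies outside the gene. The Ctsf window overlaps the start of Ctsf, but its CACGTG lies before the gene. Each motif was searched on both strands. GAGGAA occurred in 3 of the 8 windows (Ctsk, Ctss and Ctsc) and in 23.3% of all 32851 RefSeq windows. CACGTG occurred in 3 (Ctsd, Ctsf and Ctsl) and in 6.02% of all windows, and the interferon response core in 1 (Ctss) and in 2.98%. The longer E-box TCANNTGA, searched as a site of the MiT/TFE factors MITF and TFEB, can overlap other E-boxes. It occurred in Ctsk (at -136 from the RefSeq start, not marked above) and Ctsd, and in 7.09% of all windows. The NFAT core GGAAA occurred in 5 of the 8 and in 55.6% of all windows, and the AP-1 site TGANTCA in 0 of the 8 and in 6.75%. The general E-box CANNTG, which includes both E-boxes above, occurred in 6 of the 8 and in 66.2% of all windows, and TATAAA in 1 (Ctss) and in 12.4%. These are matches of letters, and no binding was measured. Base composition differed, with 43.2% G or C before Ctsk, 44.8% before Ctss and 67.2% before Ctsd, against a median of 52.4% over all windows.

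Ctsk fell with DASA-58 to 52.2% of its mean level with DMSO. It was measured at 214, 212 and 203 FPKM (fragments counted, normalized for gene length and library depth) in the DMSO libraries and at 112, 106 and 111 FPKM in the DASA-58 libraries. The groups were far from overlapping, with a mean of 210 ± 6.26 FPKM (SD, n = 3) against 110 ± 3.28 FPKM (n = 3). The log2 fold change, DASA-58 minus DMSO on log2(FPKM + 1), was -0.93 (SE 0.034, 95% interval -1.01 to -0.85). limma gave a BH-adjusted p = 8.3e-06, BH standing for the Benjamini-Hochberg method over the 10965 genes tested. On this scale 7 of the genes tested had a lower log2 fold change, a rank that depends on the pseudocount, with 45 such genes at a pseudocount of 0.1 and 0 at 5. The values rest on 5583 to 6056 fragments per library with DMSO and 2912 to 3187 with DASA-58, recovered from the steps of the FPKM values. Counting error alone is then at most 1.85% of a value. Because RNA was taken from whole cultures, fewer cells that express Ctsk and less Ctsk RNA per cell cannot be told apart.

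None of the other 9 cathepsins was called lower. Of these, 4 rose at an adjusted p under 0.05 (Ctsb, Ctss, Ctsh and Ctsd), and 5 did not pass (Ctsl, Ctsf, Ctsc, Ctsz and Ctsa). Their median log2 fold change was 0.10, and that of all 10 cathepsins 0.09, beside -0.03 over all genes tested. Over all genes tested, 7.28% were called lower and 4.24% higher. In 6 of the 10 cathepsins every DASA-58 library lay above every DMSO library, and in 1, Ctsk, every DASA-58 library lay below, where the shares over all genes tested were 11.8% and 21.6%. Each rise was smaller than the fall of Ctsk. The largest, that of Ctsh, had a log2 fold change of 0.42, against -0.93 for Ctsk. The number of cathepsins called higher depended on the model: it was 2 without a filter on low values, 2 without variance shrinkage and 6 with voom weights on recovered fragments.

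**Figure D1:**
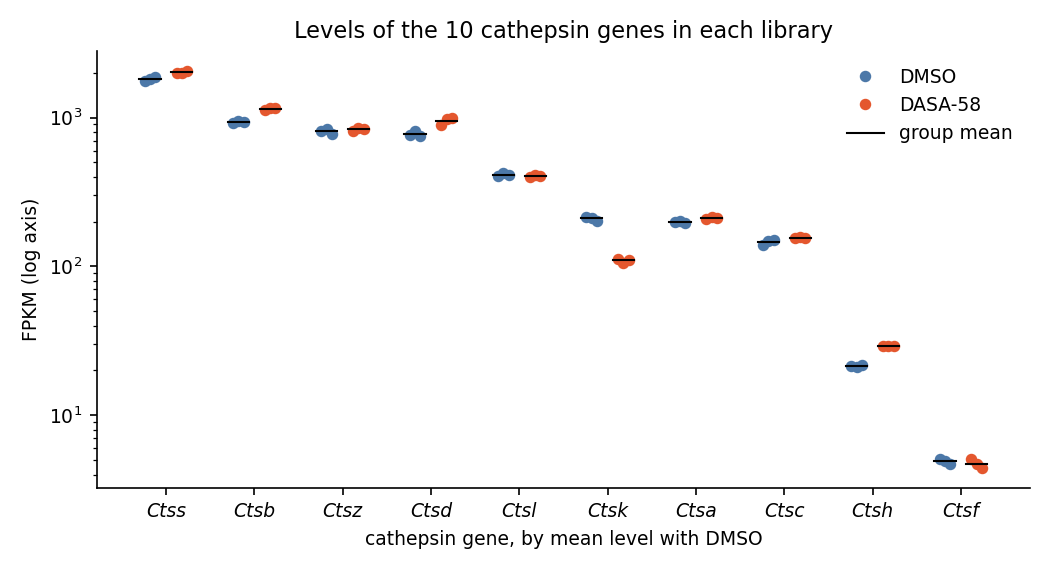
FPKM of the 10 cathepsins in each library on a log axis, with DMSO and DASA-58 libraries as separate points and the group mean as a bar. The 3 DASA-58 libraries sit at 106 to 112 FPKM for Ctsk, below the 203 to 214 FPKM of the DMSO libraries, while the points of Ctsl, Ctsf and Ctsz overlap.

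Among the endopeptidases of the papain family, which cut inside a protein chain, Ctsb rose, Ctss rose less firmly, and Ctsl and Ctsf did not pass. Ctsb, an abundant lysosomal protease that can also trim chain ends, was measured at 917, 954 and 938 FPKM with DMSO and at 1122, 1151 and 1152 FPKM with DASA-58. All DASA-58 libraries were above all DMSO libraries. Its log2 fold change was 0.29 (SE 0.025, 95% interval 0.23 to 0.34, limma, BH-adjusted p = 0.00063). Ctsb kept its call in all 18 alternatives tried.

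Ctss encodes a protease that stays active near neutral pH and cuts the invariant chain off MHC class II. Its level was 1770, 1820 and 1871 FPKM with DMSO and 1993, 2005 and 2066 FPKM with DASA-58. The groups did not overlap, and Ctss had the highest level per length of the 10 in every library. Its log2 fold change was 0.15 (SE 0.029, limma, BH-adjusted p = 0.015). The call was lost in limma without DMSO replicate 1 (adjusted p = 0.052), without DASA-58 replicate 2 (adjusted p = 0.0501) and without DASA-58 replicate 3 (adjusted p = 0.065). It was also lost without a filter (adjusted p = 0.205), without a trend in the variance (adjusted p = 0.063) and without variance shrinkage (adjusted p = 0.074), in each of which it stayed higher.

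Ctsl, a potent endopeptidase of lysosomal turnover, lay at 406, 422 and 412 FPKM with DMSO and at 398, 411 and 405 FPKM with DASA-58. These ranges overlapped, and its log2 fold change was -0.03 (95% interval -0.09 to 0.03, limma, BH-adjusted p = 0.50). Ctsf, a cathepsin with a long propeptide, was the least abundant member, at 5.08, 4.97 and 4.73 FPKM with DMSO and 5.08, 4.68 and 4.43 FPKM with DASA-58. Its ranges overlapped too, with a log2 fold change of -0.05 (95% interval -0.18 to 0.08). Its 166 to 189 fragments per library were recovered with a fitted gene length. On these, counting error on Ctsf reaches 7.76% of a value, so a change of a few percent was not detectable at this depth.

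The exopeptidases, which shorten proteins from an end, held the clearest rise of the family. Ctsh, an aminopeptidase, was measured at 21.5, 21.1 and 21.9 FPKM with DMSO and at 29.0, 29.3 and 29.1 FPKM with DASA-58. The groups stood apart by many times their SDs of 0.439 and 0.130 FPKM. Its log2 fold change of 0.42 (SE 0.030, 95% interval 0.35 to 0.49, limma, BH-adjusted p = 0.00025) was the highest of the 10, and 116 of the genes tested had a higher one on this scale. It rests on 1773 to 1797 fragments with DMSO and 2396 to 2480 with DASA-58.

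Ctsc, the dipeptidyl peptidase that activates the granule proteases of neutrophils and killer cells, was measured at 139, 149 and 150 FPKM with DMSO and at 156, 157 and 156 FPKM with DASA-58. All DASA-58 libraries were above all DMSO libraries, but the log2 fold change of 0.10 (95% interval 0.02 to 0.17) did not pass (limma, BH-adjusted p = 0.11). Ctsz, a carboxypeptidase, was measured at 815, 840 and 773 FPKM with DMSO and at 810, 848 and 841 FPKM with DASA-58. Its ranges overlapped, and its log2 fold change was 0.04 (95% interval -0.04 to 0.12).

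Ctsd, the aspartic protease, was measured at 767, 811 and 751 FPKM with DMSO and at 891, 982 and 986 FPKM with DASA-58. The groups did not overlap, though DASA-58 replicate 1 lay nearer to the DMSO libraries than the other two did. Its log2 fold change was 0.30 (SE 0.046, 95% interval 0.19 to 0.40, limma, BH-adjusted p = 0.0072). The call was lost in limma without a filter (adjusted p = 0.058) and without variance shrinkage (adjusted p = 0.080). Ctsa, the serine carboxypeptidase that also shields beta-galactosidase and neuraminidase 1, was measured at 200, 202 and 195 FPKM with DMSO and at 209, 214 and 213 FPKM with DASA-58. Its groups did not overlap, and its log2 fold change of 0.09 (95% interval 0.03 to 0.15) did not pass (limma, BH-adjusted p = 0.061). Ctsa passed in 5 of the 18 alternatives, and these included quantile normalization (limma, BH-adjusted p = 0.024).

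**Figure D2:**
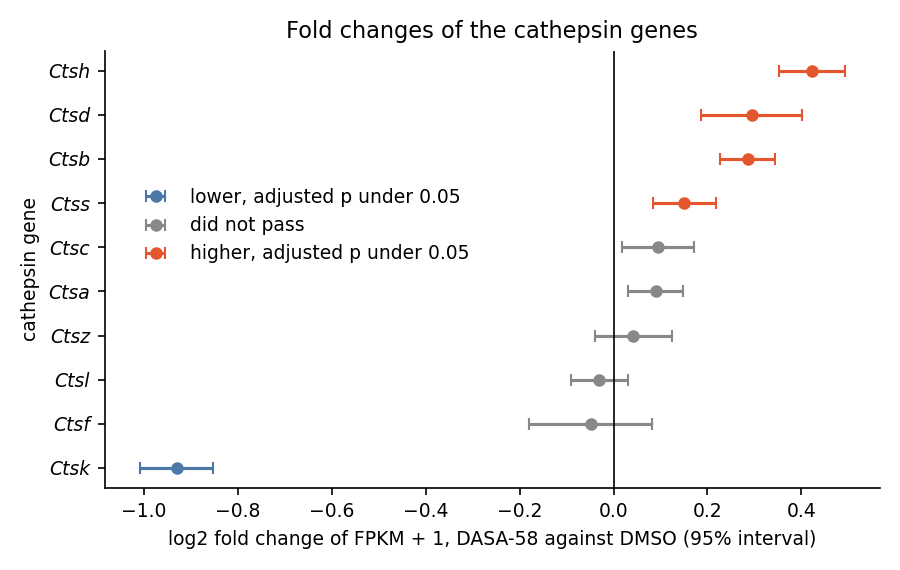
Log2 fold change (DASA-58 minus DMSO, log2(FPKM + 1) scale) of each cathepsin with its 95% interval, coloured by call. Ctsk lies at -0.93, and the other 9 lie between -0.05 and 0.42.

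The ratio of Ctsk to each other cathepsin within a library, which a common scaling factor per library cannot change, was lower with DASA-58 for all 9. The smallest gap was to Ctsf, for which the ratio with DASA-58 was 54.4% of that with DMSO, and the widest to Ctsh, at 38.5%. Against Ctsl the ratio was 53.3%, against Ctsz 50.7%, against Ctsa 49.1%, against Ctsc 48.9%, against Ctss 47% and against Ctsb and Ctsd 42.8% and 42.6%. In log2 units these differences ran from -0.88 (Ctsf) to -1.38 (Ctsh). No DASA-58 library overlapped a DMSO library in any of the 9 ratios. The exact two-sided permutation test gave p = 0.10 for each, which is the smallest p that 3 libraries against 3 allow, and 0.10 after Benjamini-Hochberg adjustment over the 9 pairs, so this test could not reach 0.05.

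The order of 2 members crossed that of Ctsk. Per length of all annotated exons, Ctsk was above Ctsa and Ctsc in every DMSO library and below both in every DASA-58 library. The mean ratio of Ctsk to Ctsa went from 1.05 to 0.517, and that of Ctsk to Ctsc from 1.44 to 0.702. This crossing depends on which length is used. Per length of the longest principal transcript, an alternative chosen after seeing the data, Ctsc stood at 340 ± 13.7 and Ctsa at 258 ± 4.71 FPKM with DMSO, both above the 210 ± 6.26 FPKM of Ctsk, which then ranked 8 of 10 in both groups. The fold changes do not depend on that choice.

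**Figure D3:**
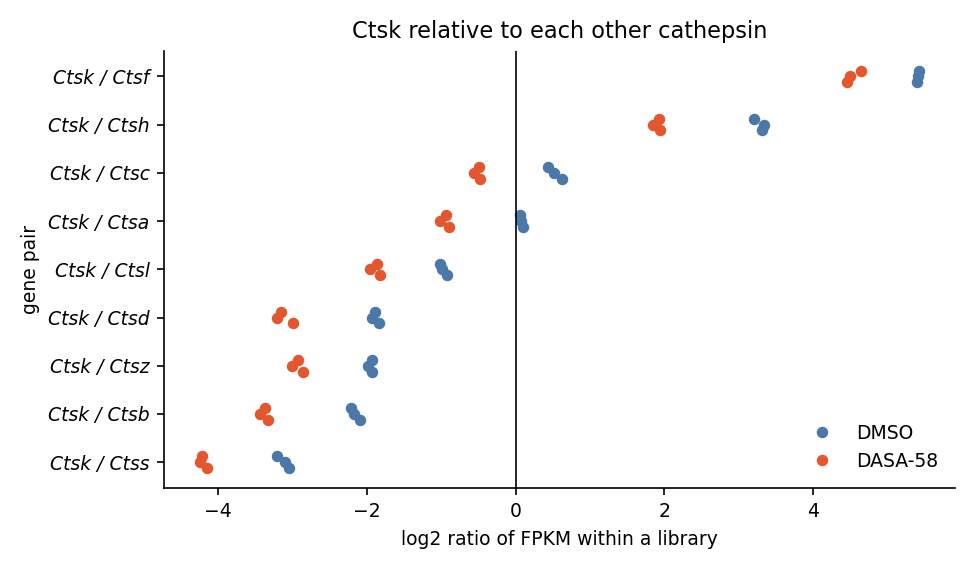
Log2 ratio of the FPKM of Ctsk to that of each other cathepsin within each library (1 point per library, 1 gene pair per line). The DASA-58 points lie to the left of the DMSO points for all 9 pairs, with mean differences from -0.88 to -1.38, and cross 0 for Ctsc and Ctsa.

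Per length, the summed level of the 10 cathepsins came to 5337 ± 92.2 FPKM (SD, n = 3) in the DMSO group and to 5866 ± 125 FPKM (n = 3) in the DASA-58 group, so it was not lower where Ctsk was. These sums were 1.51% and 1.64% of all FPKM. Ctsk made up 4.08%, 3.91% and 3.81% of the family in the DMSO libraries and 1.96%, 1.79% and 1.86% in the DASA-58 libraries. For each 1000 FPKM of the other 9 there were 41 ± 1.52 FPKM of Ctsk with DMSO and 19 ± 0.85 with DASA-58. Ctss held the largest share, 34.1 ± 0.918% with DMSO and 34.5 ± 0.461% with DASA-58, and did not move beyond that spread. By fragments, which are not divided by gene length, Ctsb held the largest share, 35.4 ± 0.151% with DMSO and 38.5 ± 0.167% with DASA-58, Ctss held 15.4 ± 0.412% and 15.3 ± 0.232%, and Ctsk went from 1.98 ± 0.0718% to 0.925 ± 0.0404%. Per length, Ctsb went from 17.5 ± 0.0949% to 19.5 ± 0.145% of the family and Ctsd from 14.5 ± 0.397% to 16.2 ± 0.589%, while Ctsl went from 7.74 ± 0.0248% to 6.90 ± 0.0913%. These shares are descriptions without a test. Ctsz and Ctsd, at ranks 3 and 4 in mean level with DMSO, changed places. Within each library Ctsz was above Ctsd with DMSO (815 against 767, 840 against 811 and 773 against 751 FPKM) and below it with DASA-58 (810 against 891, 848 against 982 and 841 against 986 FPKM). Per length of the longest principal transcript, the mean of Ctsd was above that of Ctsz in both groups.

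Ctsk and Ctss, which moved in opposite directions, are direct neighbours. The rise of Ctss was the smaller change (log2 fold change 0.15), and its call was lost in 6 of the 18 alternatives. On GRCm38, Ctsk (ENSMUSG00000028111) lies at chr3:95499256-95509362 and Ctss (ENSMUSG00000038642) starts 17424 bases after its end. Within 200 kb of Ctsk the table lists 21 genes, of which 13 were tested. Ctsk was the only one of them called lower and Ctss the only one called higher. Among all genes tested the shares were 7.28% lower and 4.24% higher. Ctsk defines this window and Ctss is a cathepsin taken beforehand. Their 2 calls among the 13 therefore cannot be compared with those shares. Arnt, the gene upstream of Ctsk, which encodes the partner subunit of HIF-1, had a mean of 7.67 FPKM in the DMSO group against 7.42 FPKM (limma, BH-adjusted p = 0.61). The other 8 cathepsins described here lie on other chromosomes. Ctsb is at chr14:63122462-63145923, Ctsl at chr13:64359337-64370890, Ctsf at chr19:4855130-4860918 and Ctsh at chr9:90054152-90076089, with Ctsc and Ctsd both on chromosome 7 but at chr7:88278085-88310888 and chr7:142375911-142388038, and Ctsz and Ctsa both on chromosome 2 at chr2:174427493-174439039 and chr2:164832873-164841032. Where another gene overlaps a member, reads could be shared, since the use of strand is not given in the sources used here. The overlapping genes in the table were Pltp at 138 FPKM and Neurl2 at 4.81 FPKM for Ctsa, Nelfcd at 18.9 FPKM for Ctsz, Fdft1 at 6.01 FPKM for Ctsb, Hmgb1-ps5 at 1.29 FPKM for Ctss and Gm26522 at 0.0465 FPKM for Ctsc, each the mean over the 6 libraries.

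**Figure D4:**
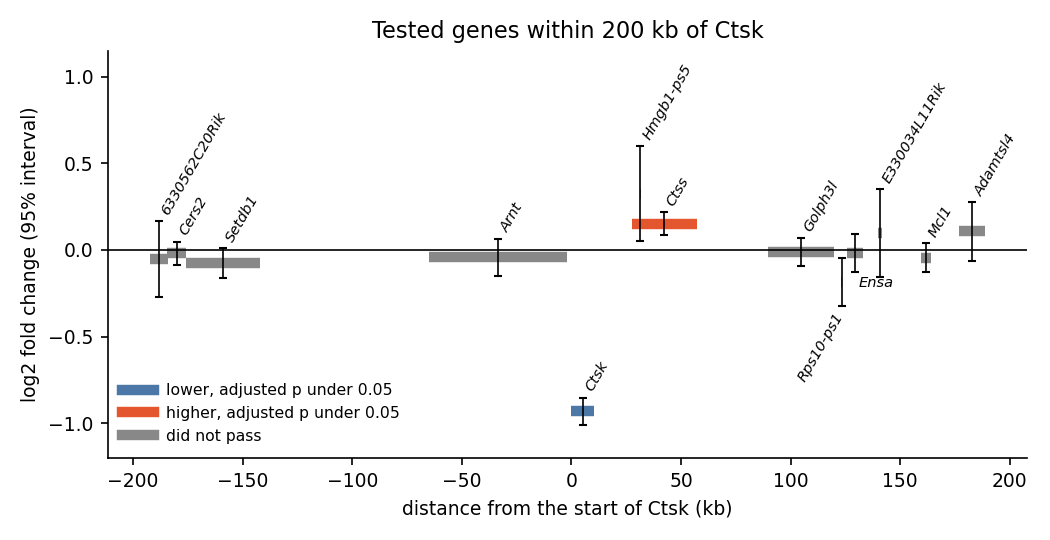
Log2 fold change with its 95% interval of the 13 tested genes within 200 kb of the start of Ctsk, by distance from that start in kb, with the length of each bar showing the gene. Ctsk lies at -0.93 and the next gene, Ctss, at 0.15.

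The genes whose profile over the 6 libraries was most like that of Ctsk were Acp5, Jdp2, Atp6v0d2, Itgb3 and Ocstamp, by the Euclidean distance of log2(FPKM + 1) from the DMSO mean, which was 0.092, 0.117, 0.175, 0.181 and 0.182. Acp5 encodes the tartrate-resistant phosphatase TRAP, Jdp2 an AP-1 family factor, Atp6v0d2 a proton pump subunit, Itgb3 the beta 3 integrin chain and Ocstamp a protein of cell fusion. Acp5 was at 107, 107 and 100 FPKM with DMSO and at 55.3, 55.9 and 55.7 FPKM with DASA-58, a pattern close to that of Ctsk in every library. With a pseudocount of 5 the log2 fold change of Ocstamp was -0.54, against -0.91 for Ctsk. The cathepsin nearest to Ctsk by this measure was Ctsf, which ranked 4316 in likeness, and the farthest was Ctsh, which ranked 10818.

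Markers of several cell types also differed between the groups. The marker lists were chosen with earlier results of these data known. Over all genes tested, 7.28% were called lower and 4.24% higher. Of 9 osteoclast markers, 8 were tested and all 8 were lower, with a median log2 fold change of -0.87, and their summed level was 575 to 619 FPKM with DMSO and 338 to 355 FPKM with DASA-58. Of 11 macrophage markers, 10 were tested, 4 were higher (Adgre1, Cd68, Mertk and Mrc1) and Cd14 was lower, and their summed level was 16564 to 17403 FPKM with DMSO and 17513 to 19823 FPKM with DASA-58. Lyz2 alone, whose groups overlapped, made up 88.2% to 89.6% of that sum, and the other 10 markers summed to 1845 to 1890 FPKM with DMSO and 2048 to 2066 FPKM with DASA-58. The call of Cd68 was lost without DMSO replicate 1 or 3 and without DASA-58 replicate 2 or 3, and that of Mertk without DASA-58 replicate 1. The macrophage markers define the labelled cell type and were present in all libraries. Of 11 neutrophil markers, 9 were tested and 4 were lower, at 177 to 180 FPKM summed with DMSO and 139 to 145 FPKM with DASA-58, with Ly6g at no more than 1 fragment. Stromal markers (4 of 10 listed were tested, none called) summed to 36.5 to 38.8 against 37.3 to 38.1 FPKM. B cell markers (1 of 3 listed was tested, not called) summed to 1.71 to 2.04 against 2.09 to 2.38 FPKM, with Ms4a1 at 0 in every DMSO library. T and NK cell markers (10, none tested) summed to 1.28 to 1.96 against 1.28 to 1.74 FPKM, and dendritic cell markers (6, none tested) to 1.63 to 1.68 against 1.49 to 1.58 FPKM. The part of these cell types in the cathepsin values was not tested.

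Of 14 further cathepsin genes, 5 are listed in the table and 1 reached the filter. Ctso, a lysosomal cysteine protease, went from 9.90 ± 0.360 FPKM (DMSO) to 10.9 ± 0.407 FPKM (DASA-58) and did not pass (log2 fold change 0.13, limma, BH-adjusted p = 0.11). Ctsw, the cathepsin of killer lymphocytes, had 16, 25 and 22 fragments with DMSO and 12, 9 and 11 with DASA-58. Ctsg, a serine protease of neutrophil granules, had 9, 23 and 14 fragments against 15, 19 and 27, and Ctse, an aspartic protease of endosomes, 21, 23 and 16 against 26, 20 and 23. The Ctsw counts, which rest on a fitted gene length, did not overlap between the groups, while those of Ctsg and Ctse did. In 21.6% of all genes tested, every DASA-58 library likewise lay below every DMSO library. Ctsw did not pass in limma without a filter (BH-adjusted p = 0.095). Ctsll3 was at 0 fragments in all libraries but 1, which held 1 fragment, where up to 3 fragments cannot be told from 0.

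Cystatins, the tight-binding inhibitors of the cysteine cathepsins, showed no called change. Cst3, the secreted cystatin C, had 589 ± 20.7 FPKM (DMSO) against 545 ± 8.47 FPKM (DASA-58), and its log2 fold change of -0.11 did not pass (limma, BH-adjusted p = 0.057), although Cst3 was called lower with equal library totals, with a filter at a mean of 5 FPKM and with voom weights. Cstb, the cytosolic cystatin B, was at 998 ± 60.9 and 1016 ± 51.4 FPKM. The remaining 9 of the 11 listed inhibitors did not reach the filter. One of these, Cst7, which encodes cystatin F and was picked out after its values were seen, had 19, 19 and 19 fragments with DMSO and 7, 15 and 8 with DASA-58.

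Of 13 genes for the processing, sorting and partners of cathepsins, 3 rose, 4 fell and 6 did not pass. The shares over all genes tested were 4.24% higher and 7.28% lower. This list was chosen with earlier results of these data known, and its median log2 fold change was 0.05. Sort1, the sorting receptor sortilin, went from 3.51 ± 0.174 to 5.47 ± 0.358 FPKM (log2 fold change 0.52, which was 0.30 with a pseudocount of 5 and 0.63 with 0.1). Psap, the precursor of the saposins, went from 2105 ± 39.8 to 2552 ± 43.3 FPKM (0.28), and Lgmn, the asparaginyl endopeptidase that cuts cathepsins B, L and H to their mature chains, from 417 ± 10.4 to 454 ± 4.83 FPKM (0.12). The 4 that fell belong to mannose 6-phosphate sorting and to antigen presentation. Igf2r and M6pr, the 2 mannose 6-phosphate receptors, went from 34.2 to 29.5 and from 197 to 182 FPKM, Gnptab, a subunit of the enzyme that makes the mannose 6-phosphate tag, from 15.4 to 13.6 FPKM, and Cd74, the invariant chain that cathepsin S cuts, from 8.94 to 7.10 FPKM. Gnptg, Nagpa, Scarb2, Grn, Glb1 and Neu1 did not pass, with log2 fold changes of 0.14, -0.13, 0.07, 0.05, 0.05 and 0.08. Gnptg passed only without DASA-58 replicate 1, and Nagpa only without DMSO replicate 3 or with voom weights. The calls of Sort1 and Psap held without any 1 library. That of Lgmn was lost without DMSO replicate 1 and without each of the 3 DASA-58 libraries, and so was that of Cd74. Those of Gnptab and M6pr were each lost without 5 of the 6 libraries (all but DASA-58 replicate 1 and all but DMSO replicate 2), and that of Igf2r without DASA-58 replicate 3. The 4 lower calls thus became 0 without DASA-58 replicate 3, and they became 1 with centring on the median.

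Other genes of the lysosome moved in the direction of the macrophage cathepsins. Of 16 listed enzymes and membrane proteins, 9 rose, none fell and 7 did not pass. The shares over all genes tested were 4.24% higher and 7.28% lower. This list was chosen with earlier results of these data known, and its median log2 fold change was 0.12. Lipa, the acid lipase, had the largest rise, from 518 ± 14.1 to 648 ± 4.28 FPKM (log2 fold change 0.32, limma, BH-adjusted p = 0.00047). Hexa, a hexosaminidase subunit, went from 234 to 276 FPKM (0.24) and Lamp1, the main membrane glycoprotein, from 444 to 511 FPKM (0.20). Lamp2 (0.19), Man2b1 (0.19), Gla (0.16), Asah1 (0.15) and Tpp1 (0.13) also rose. No member was lower in any of the 18 alternatives, but the number called higher was 4 without DMSO replicate 1, 5 without DMSO replicate 2, 4 without DASA-58 replicate 1, 5 without DASA-58 replicate 2 and 5 without DASA-58 replicate 3. The calls lost included those of Lamp2, Gla, Asah1 and Tpp1, whereas Lipa, Hexa, Lamp1 and Man2b1 kept theirs without any 1 library.

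Of 14 genes that work with cathepsin K in bone resorption, 10 fell, none rose and 4 did not pass, with a median log2 fold change of -0.25, beside -0.93 for Ctsk. The list overlaps the osteoclast markers and was chosen with earlier results of these data known, so its direction is not independent evidence. The shares over all genes tested were 7.28% lower and 4.24% higher. Car2, the carbonic anhydrase that supplies protons, went from 13.5 ± 0.929 to 6.67 ± 0.415 FPKM, or 49.4% of its mean level with DMSO (log2 fold change -0.92), and Itgb3 to 46.5% (-0.86), so both went lower in FPKM than the 52.2% of Ctsk. Acp5 went to 53.2% (-0.90) and Atp6v0d2 to 53.3% (-0.87). The added 1 FPKM shrinks the log2 fold change of such low genes: with a pseudocount of 0.1 that of Itgb3 was -1.08 and that of Car2 -1.01, against -0.94 for Ctsk, and with a pseudocount of 5 that of Itgb3 was -0.46. Mmp9, the gelatinase, went from 412 ± 17.5 to 246 ± 7.94 FPKM (log2 fold change -0.75) and Src, the kinase of the ruffled border, fell by 0.55 on the log2 scale. The falls of Slc4a2 (-0.30), Tcirg1 (-0.19), Mmp14 (-0.18) and Snx10 (-0.15) were smaller. The call of Mmp14 was lost without any 1 library other than DMSO replicate 3, and that of Snx10 without any other than DASA-58 replicate 1. Clcn7, Ostm1, Plekhm1 and Rab7 did not pass, with log2 fold changes of 0.05, 0.05, 0.02 and 0.04.

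Of 13 transcription factors known at cathepsin or lysosomal genes, 5 fell, none rose and 8 did not pass, with a median log2 fold change of -0.07. Up to 2 were called higher under other settings, the most with voom weights. The shares over all genes tested were 7.28% lower and 4.24% higher, and the list was chosen with earlier results of these data known. Nfatc1, the factor of osteoclast commitment that acts on Ctsk, went from 20.8 ± 1.02 to 15.0 ± 0.580 FPKM (log2 fold change -0.45, limma, BH-adjusted p = 0.0012). Prdm1 (-0.56, and -0.33 with a pseudocount of 5), Fos (-0.45) and Junb (-0.43) fell by similar amounts, and Spi1, which encodes PU.1, went from 256 ± 5.01 to 232 ± 2.96 FPKM (-0.14). The call of Spi1 was lost without DMSO replicate 1, without DASA-58 replicate 1 and without DASA-58 replicate 2, and with quantile normalization it lay at -0.09 and did not pass. The MiT/TFE genes Mitf, Tfe3, Tfeb and Tfec did not pass, with log2 fold changes of -0.07, 0.04, -0.05 and 0.07. RNA levels do not show the location or activity of these factors.

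**Figure D5:**
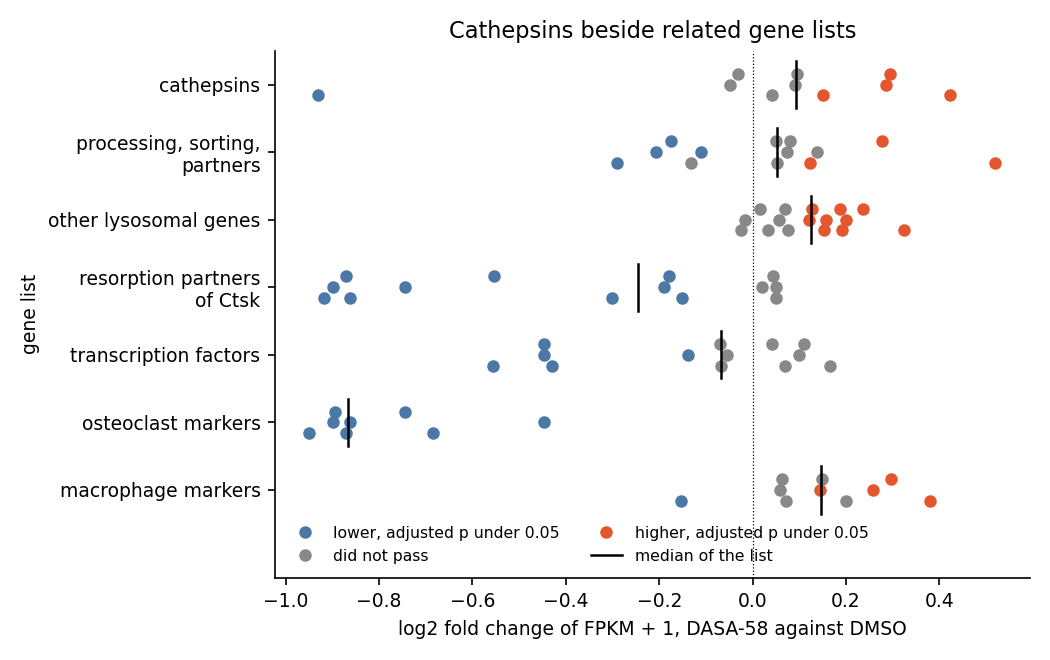
Log2 fold change of each tested gene in the lists of cathepsins, of genes linked to them and of osteoclast and macrophage markers, coloured by call, with a bar at the median of each list. The medians are 0.09 for the cathepsins, 0.12 for other lysosomal genes, -0.25 for the resorption partners of Ctsk and -0.87 for the osteoclast markers.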

How the data were processed

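RNA-seq of BMMs (3 DMSO, 3 DASA-58) was analysed from the deposited FPKM table, which the authors normalized for gene length and library depth. The submitters' processing notes name HISAT2 2.1.0, HTSeq 0.6.0 and mm8. Annotation and strand use are not given in the sources used here. Symbols and gene coordinates (GRCm38) come from GENCODE mouse release M21 and were matched for 23455 identifiers and not for 49. All value columns were mapped (0 left out). Whole fragments were recovered for 23301 genes (99.1%, tolerance 0.01), at depths of 18191567 to 18968562 fragments per library. The GENCODE length served for 21341 genes. For the remaining 1960, which include Ctsf and Ctsw, the shortest length that made every value whole was fitted, so their fragment numbers are less certain. A count of 0 allows 3 fragments, for counting error only.

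Log2(FPKM + 1) was compared with limma 3.58.1 in R 4.3.3 (lmFit, eBayes with a trend, Benjamini-Hochberg method). The fit held the 10965 genes whose mean reached 1 FPKM, of which 798 were lower and 465 higher. In simulated data 180 of 196 changed genes were called, with 7 unchanged ones, and 0 with nothing changed. Every planted change was larger than any cathepsin rise, and all genes were given the same dispersion. The rate therefore does not apply to changes as small as those rises. Ratios were tested with exact permutation tests (SciPy 1.17.1). Tables used numpy 2.4.6 and pandas 2.3.3 in Python 3.11.15, and figures matplotlib 3.10.9. Named were all cathepsins, tested inhibitors and sorting genes, called members of the other lists (1 is not reported here) and the 5 genes most like Ctsk. The members and lists were chosen with earlier results of these data known.

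Same-numbered libraries did not deviate together (correlations -0.02, 0.02 and -0.02), so the numbers were not taken as pairs. Replicates differed beyond sampling noise. Alternatives covered pseudocounts, filters, scaling, variance models, voom weights, the replicate block and each library left out.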

Additional observations from a re-analysis of the deposited data

How the results depend on the processing

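Across 18 alternatives the number of cathepsins called lower stayed at 1, and the log2 fold change of Ctsk ran from -0.96 to -0.90. Its difference from the median of the other 9 cathepsins, computed under 12 of them, ran from -1.072 to -0.998. The number of cathepsins called higher was 2 without a filter and 2 without variance shrinkage, 6 with voom weights, and 3 to 4 when each library was left out in turn. Among the genes given a log2 fold change or a call by name, the direction turned under quantile normalization for Ctsl (0.002) and Ctsz (-0.039), and for Cstb under quantile normalization (-0.006) and without DMSO replicate 1 (-0.011, the lowest of its leave-one-out values, whose highest was 0.074). None of these values passed. The added pseudocount matters most for low genes. With a pseudocount of 5 the log2 fold changes of Sort1 (0.30), Itgb3 (-0.46), Ocstamp (-0.54) and Prdm1 (-0.33) shrank by over 1.5 times. With the replicate number as a block, 579 genes were lower and 378 higher, and no cathepsin call changed, whereas Cd74, M6pr, Tpp1, Mmp14 and Snx10 were among the named genes no longer called. Among all genes, the lower and higher calls were 372 and 257 without a filter, 314 and 227 without variance shrinkage, 515 and 341 without a trend, 1322 and 735 with voom weights, 588 and 600 with quantile normalization, 504 and 597 with centring on the median, 511 and 602 with a trimmed mean and 958 and 386 with equal totals. With each library left out, 387 to 603 genes were lower and 272 to 375 higher. The share of lower calls was 63.2%, against 49.5% (quantile), 45.8% (median), 45.9% (trimmed mean) and 71.3% (equal totals). Levels per principal transcript were added after seeing the data. Ctsf could not be tested at a mean of at least 5 FPKM.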
